A study of Mus musculus with 6 samples.

Results

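A set of 10 genes best known from fat cells was followed through 6 RNA-sequencing libraries of mouse lung. They were Adipoq, Cfd, Lep, Plin1, Plin4, Cidec, Car3, Lipe, Fabp4 and Lpl, found by gene symbol, and all 10 members were present among the 23183 genes of the tables. The members were chosen by their log2 levels in the same libraries, above all the difference between LPS and saline. That difference is therefore given for the members as a description, without a test. No p-value is given for a member, and where the fit over all genes called a member, the call is only counted as part of that description.

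Lungs of mice on a C57BL/6 background had received lipopolysaccharide (LPS), an inflammatory molecule from the outer membrane of Gram-negative bacteria, or saline by instillation into the trachea. There were 3 LPS libraries and 3 saline libraries. The titles call all 6 wild type, whereas the genotype field gives LCN2-/- for LPS 1 and LPS 2, LCN4-/- for LPS 3 and wild type for the saline libraries. The values of Lcn2, which encodes lipocalin-2, were 13.60 in LPS 1, 13.29 in LPS 2 and 13.82 in LPS 3, against 8.20, 11.28 and 10.11 in saline 1, 2 and 3. A high Lcn2 level in LPS 1 and LPS 2 goes against a label of knockout, and if that field were right, genotype and treatment cannot be told apart. The sources used here give no dose, age or time of collection and do not state that the libraries came from separate animals.

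Values are log2(value + 1) as deposited, and every difference is the LPS mean minus the saline mean on that scale. Depth is unknown, because no read counts were analysed here. The table of LPS 3 ends early, within the symbols that begin with S, and 4484 genes have no value in it. All members have a value in all 6 libraries. The lung identity of the tissue was plain from the surfactant gene Sftpc, whose group mean was 13.55 in LPS and 13.95 in saline (SD 0.08 in each, n = 3).

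White fat cells store triglyceride in a single large lipid droplet, coat that droplet with perilipins, release fatty acids from it by hormone-controlled lipolysis, and secrete hormones such as adiponectin and leptin. The program is driven by the nuclear receptor PPARγ together with C/EBP transcription factors. Fat lies beside the heart, the great vessels and the mediastinum, next to the lung, and a piece of lung can carry some of it. Several of the 10 genes are also expressed outside fat: Lpl and Fabp4 in macrophages, Fabp4 in capillary endothelium and Lpl in heart muscle.

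Adipoq, Cfd and Lep encode secreted products, as Lpl also does. The stretch of DNA before the start of Adipoq, Cfd and Lep is shown here because these 3 genes were near 0 in the same libraries (LPS 1 and LPS 2). Plin1 and Car3, whose stretches are not shown, were also near 0 in these libraries. The sequences are from RefSeq, build GRCm38.p6, plus strand, 250 bases ending at the base before the annotated start, 5′ to 3′. Adipoq is at chr16:23146286-23146535, Cfd at chr10:79890603-79890852 and Lep at chr6:29059971-29060220. The starts are those of RefSeq, and motif distances are counted from them. For Lep, the GENCODE annotation places the first base of the gene at 29060220, the last base of this window. Capitals mark matches to the motifs that were searched.
Adipoq: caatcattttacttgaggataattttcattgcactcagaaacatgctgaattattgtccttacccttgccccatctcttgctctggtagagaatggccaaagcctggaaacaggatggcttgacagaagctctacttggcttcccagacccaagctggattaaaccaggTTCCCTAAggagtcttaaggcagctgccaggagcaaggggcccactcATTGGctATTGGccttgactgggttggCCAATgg
Cfd: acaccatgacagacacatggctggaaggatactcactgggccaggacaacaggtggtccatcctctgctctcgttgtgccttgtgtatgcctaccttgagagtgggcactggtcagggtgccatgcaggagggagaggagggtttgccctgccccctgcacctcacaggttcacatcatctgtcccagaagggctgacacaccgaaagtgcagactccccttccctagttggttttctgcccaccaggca
Lep: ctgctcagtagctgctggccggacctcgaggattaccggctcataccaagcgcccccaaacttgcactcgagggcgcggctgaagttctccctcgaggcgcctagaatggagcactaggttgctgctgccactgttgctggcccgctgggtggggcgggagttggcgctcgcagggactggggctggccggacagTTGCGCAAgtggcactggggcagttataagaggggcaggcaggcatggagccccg

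The motifs searched, on both strands, were TTNNGNAA for C/EBP, the direct repeat bound by PPARγ with its partner RXR (named without its letters), the nuclear receptor half-site AGGTCA, the TATA box TATAAA and the CCAAT box CCAAT. A half-site can lie within a match of the repeat. Adipoq had 1 C/EBP match, on the minus strand, 81 to 74 bases before the start, and 3 CCAAT matches that begin 34, 27 and 7 bases before it, those at 34 and 27 on the minus strand. Lep had a C/EBP match, TTGCGCAA, which reads the same on both strands and begins 55 bases before the start. Cfd had no match to any of the motifs in this window. Among 32851 windows of the same length in the RefSeq table, 36.8% held a C/EBP match, 33.8% a CCAAT match, 14.0% the half-site, 12.4% the TATA box and 0.338% the PPARγ repeat. Windows were found for 7 members, and none of their 9 windows held the repeat. A match is a string of letters, and these data do not show a factor bound there.

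The genes of 3 secreted adipocyte products, Adipoq, Cfd and Lep, were near 0 in 2 LPS libraries and measurable in every saline library. Adipoq (chromosome 16, 23146536 to 23158028, plus strand), which encodes the insulin-sensitising hormone adiponectin, had values of 0.06, 0.00 and 0.63 in LPS 1, 2 and 3. In saline 1, 2 and 3 it had 4.13, 3.34 and 2.76. Every LPS value lay below every saline value, and the difference was -3.18 (SE 0.45). Before the log, the LPS mean was 1.87% of the saline mean.

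Cfd (chromosome 10, 79890853 to 79892655, plus strand) encodes complement factor D, also called adipsin, the protease that starts the alternative complement pathway. Its values were 0.00, 0.00 and 2.95 in LPS 1, 2 and 3, against 5.77, 6.10 and 5.03 in saline 1, 2 and 3. LPS 3 stood apart from the other LPS libraries, at 13.2% of the saline mean before the log, while LPS 1 and LPS 2 are listed at 0. The difference was -4.65 (SE 1.03), and without LPS 3 it was -5.63.

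Lep (chromosome 6, 29060220 to 29073877, plus strand), which encodes the satiety hormone leptin, had low values in every library. They were 0.00, 0.00 and 0.42 in LPS 1, 2 and 3, against 1.64, 0.77 and 0.40 in saline 1, 2 and 3. The groups overlapped, since LPS 3 was just above saline 3. The difference was -0.79 (SE 0.39), and it was -0.44 without saline 1. Lep was the member that did not pass the filter of the fit, which asked for a value of at least 1 before the log in at least 3 libraries.

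Among the genes of the lipid droplet, Plin1 separated the groups with no LPS library above 0.08. Plin1 (chromosome 7, 79720218 to 79732903, minus strand) encodes perilipin 1, the coat protein that guards the droplet of fat cells from lipases. Its values were 0.04, 0.00 and 0.08 in LPS 1, 2 and 3 and 3.22, 2.40 and 2.19 in saline 1, 2 and 3. The difference was -2.56 (SE 0.31), and the LPS mean before the log was 0.52% of the saline mean. LPS 3, which held Cfd, held almost no Plin1, at 1.06% of its saline mean.

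Cidec (chromosome 6, 113424634 to 113435760, minus strand), whose product fuses small droplets into large ones, had values of 0.53, 0.82 and 1.83 in LPS 1, 2 and 3. Its saline values were 3.95, 3.34 and 3.13. The groups did not overlap, the difference was -2.41 (SE 0.46), and LPS 3 was again the LPS library with the highest value. Plin4 (chromosome 17, 56100591 to 56109803, minus strand), a perilipin of nascent droplets that muscle also expresses, had 0.69, 0.79 and 1.31 in LPS 1, 2 and 3 against 2.75, 1.60 and 1.72 in saline. Its difference was -1.10 (SE 0.41), and -0.73 without saline 1. Plin4 overlaps Hdgfl2 on the opposite strand, and the sources used here do not say whether counting used strand, so its values are uncertain to that extent.

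Car3 (chromosome 3, 14863512 to 14872523, plus strand) encodes carbonic anhydrase III, a cytosolic enzyme abundant in fat and in slow skeletal muscle. It had values of 0.09, 0.09 and 0.96 in LPS 1, 2 and 3, against 6.08, 5.29 and 4.25 in saline 1, 2 and 3. The difference of -4.83 (SE 0.60) was the most negative of the 10 members, and the LPS mean before the log was 0.875% of the saline mean. The groups were far apart.

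The enzymes and carriers of fatty acids did not share this pattern. Lipe (chromosome 7, 25379527 to 25398710, minus strand), which encodes hormone-sensitive lipase, had 3.30, 3.43 and 3.10 in LPS 1, 2 and 3 against 4.25, 3.64 and 4.14 in saline. The groups did not overlap, but the difference was -0.73 (SE 0.21), and LPS libraries were at 49.3% to 63.7% of the saline mean before the log. Lipe overlaps the antisense transcript 4732471J01Rik, with the same uncertainty as for Plin4.

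Fabp4 (chromosome 3, 10204088 to 10208576, minus strand) encodes the fatty acid-binding protein of fat cells, macrophages and endothelium. Its values were 6.34, 6.21 and 6.72 in LPS 1, 2 and 3, inside the saline range of 7.65, 6.91 and 5.91. The difference was -0.40 (SE 0.53), it was 0.01 without saline 1, -0.86 without saline 3, and -1.20 after all libraries were scaled to equal sums of their values before the log. No difference beyond the spread of the libraries can be read for Fabp4.

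Lpl (chromosome 8, 68880491 to 68907448, plus strand) encodes lipoprotein lipase, which frees fatty acids from circulating triglyceride, and it was the member with higher values in LPS. They were 8.41, 8.51 and 8.13 in LPS 1, 2 and 3, against 6.44, 6.25 and 5.85 in saline 1, 2 and 3. The groups did not overlap, and the difference was 2.17 (SE 0.21). Before the log, the LPS mean was 4.51-fold the saline mean. With equal sums the difference was 1.37, and with quantile normalization 1.56.

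**Figure D1:**
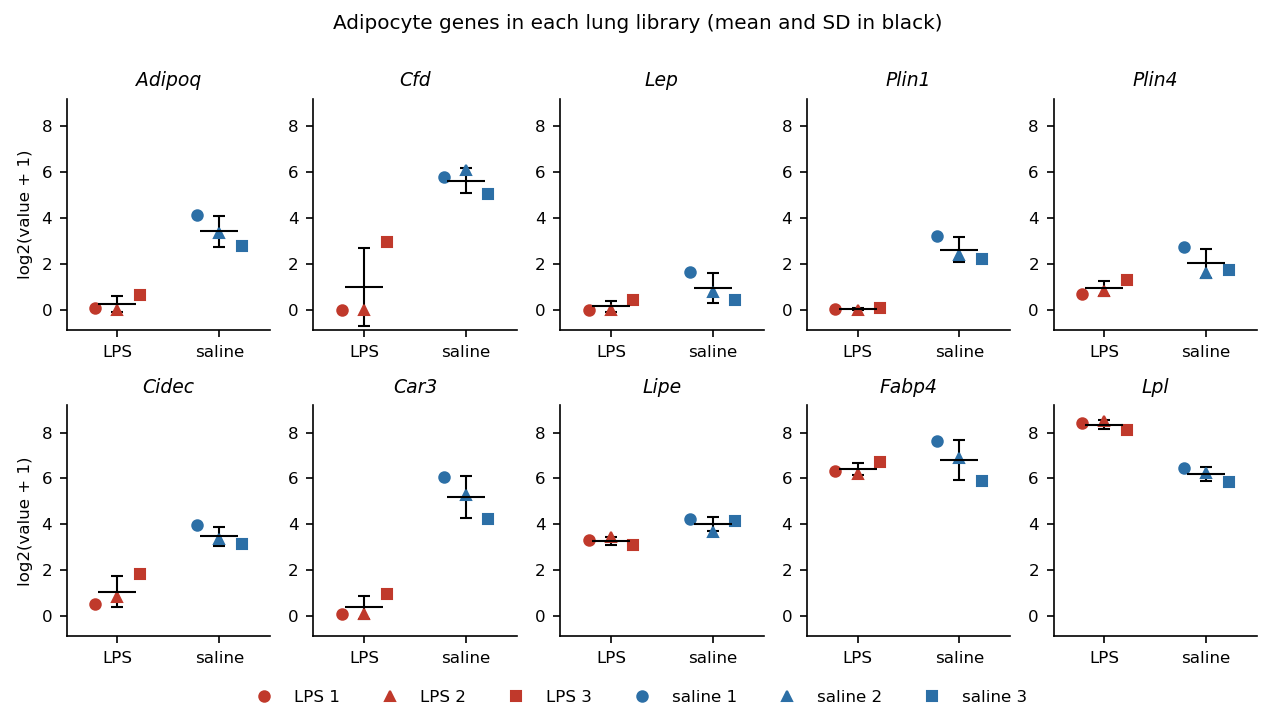
Deposited log2(value + 1) of the 10 adipocyte genes in each library, LPS on the left and saline on the right of each panel; symbols are libraries, and black bars are the mean with its SD over 3 libraries. Adipoq, Cfd, Plin1, Cidec, Car3, Plin4 and Lipe lie lower in all LPS libraries, Lpl lies higher, and Lep and Fabp4 overlap.

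Over the 10 members, every LPS value lay below every saline value for 7 genes and above for 1 gene, and the groups overlapped for 2. Among all 13116 genes tested, 30.7% had LPS values all below and 32.7% had them all above. Of the 9 members past the filter, 7 were called lower, where 24.3% of all genes tested were, and 1 was called higher, where 25.7% of all were, or 50.1% in either direction (limma with Benjamini-Hochberg adjustment). These counts come from the contrast that chose the genes and support nothing further. Adipoq, Plin1 and Car3 passed the filter through the saline libraries alone. The median difference was -1.75 over the 10 members and 0.02 over all genes tested. In bulk tissue, fewer fat cells and less RNA per fat cell cannot be told apart.

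**Figure D2:**
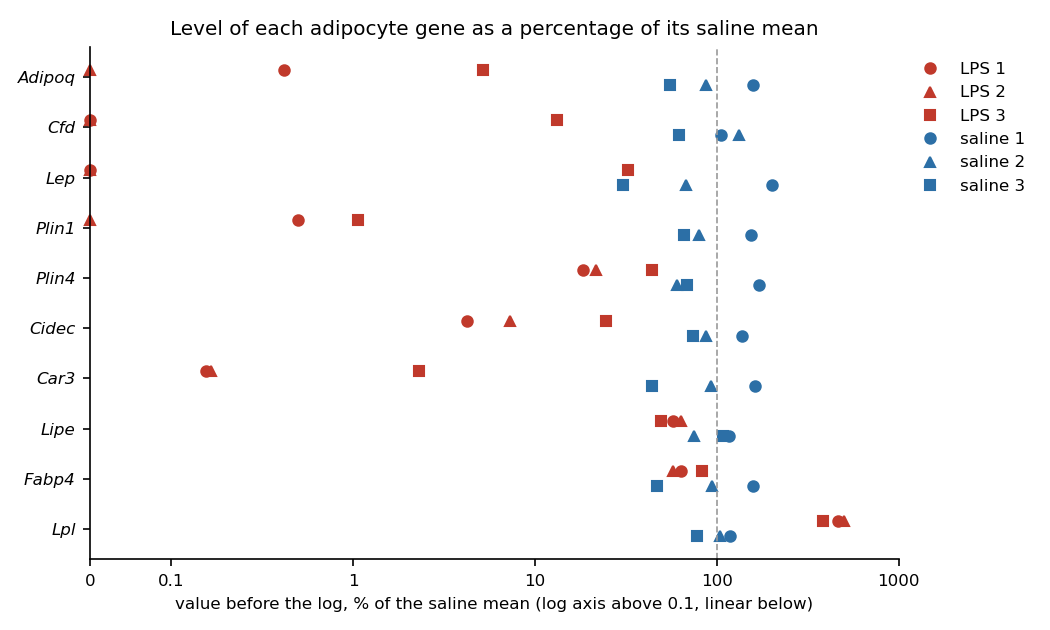
Value before the log of each adipocyte gene in each library as a percentage of that gene's saline mean, on an axis that is linear from 0 to 0.1 and logarithmic above; red symbols are LPS libraries, blue symbols saline libraries, and the dashed line marks 100%. Cfd and Lep have 2 overlapping red symbols at 0 (LPS 1 and LPS 2), Plin1 and Car3 stay at or under 2.3% in LPS, and Lpl lies between 385% and 501%.

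The members also varied within the groups, and mostly in the same libraries. In LPS, the highest value was in LPS 3 for 8 members, where it was for 33.2% of the tested genes with 6 values; Lpl and Lipe were the exceptions, with LPS 2 highest. LPS 3 is also the library with the LCN4-/- label and the shortened table. Relative to the saline mean, LPS 3 held 32.5% of Lep, 24.5% of Cidec, 13.2% of Cfd, 5.18% of Adipoq, 2.30% of Car3 and 1.06% of Plin1, so the members were not in 1 fixed proportion there.

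Among saline libraries, saline 1 had the highest saline value for 9 of the 10 members, the exception being Cfd, which was highest in saline 2. Saline 1 was highest for 33.7% of all genes tested. The lowest saline value was in saline 3 for 8 members, where it was for 31.3% of all genes tested. Before the log, the highest saline library exceeded the lowest by 6.63-fold for Lep, 3.70-fold for Car3, 3.39-fold for Fabp4 and 2.87-fold for Adipoq, and by 1.51-fold for Lpl. Without LPS 3 and saline 1 together, an alternative chosen after seeing the data, the differences were -5.57 for Cfd, -4.68 for Car3, -3.02 for Adipoq, -2.56 for Cidec, -2.27 for Plin1 and 2.41 for Lpl.

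The gene most like Adipoq over the 6 libraries was Ogn, with Pearson's r = 0.999 on the log2 scale, among 10294 other tested genes with 6 values. Ogn encodes the small proteoglycan osteoglycin and had values of 3.30, 3.20 and 3.86 in LPS 1, 2 and 3 against 7.72, 7.11 and 6.21 in saline. Car3 was next (0.999), followed by 2610008E11Rik, Rev3l, Prkd3, Edil3, Crnde, Ddr2, Kctd12b and Calml3, with r of 0.996 to 0.998. Of the other members, Plin1 reached 0.993, Cidec 0.979, Cfd 0.945, Plin4 0.913, Lep 0.871, Lipe 0.836 and Fabp4 0.588, and Lpl had -0.922. The libraries fall into 2 separate groups, and 896 genes (8.70%) had r above 0.95, so these values mostly restate the separation of the groups and carry no p.

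Among genes of white fat cells outside the set, more were called lower than higher in LPS. The tables hold 24 such genes. Of these 20 were tested, and 12 fell, 1 rose and 7 did not pass (60.0% lower, against 24.3% of all genes tested). Of the 12, Pck1, Thrsp, Adrb3 and Slc2a4 had no LPS library at a value of 1 before the log. These 4 passed the filter through saline alone and so had to differ, and 8 of the others were called lower. The list's median difference was -0.59, against 0.02 over all genes tested. The gluconeogenesis and glycerol synthesis gene Pck1 had 0.00, 0.00 and 0.16 in LPS 1, 2 and 3 against 3.47, 2.22 and 2.28 in saline, a difference of -2.60 (SE 0.30). Npr3, the clearance receptor for natriuretic peptides, fell by 2.14 (SE 0.18; limma adjusted p = 9.14e-05).

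The lipogenic regulator Thrsp, fitted on 5 libraries because LPS 3 has no value for it, had 0.65 and 0.68 in LPS 1 and 2 against 4.37, 2.52 and 1.63 in saline. Its difference was -2.18 (SE 0.64), and no p is given because it passed the filter through saline alone. The call of Thrsp was also lost without a filter on low values and with the robust fit. It was lost as well without LPS 1, without LPS 2 and without saline 2. Retn, which encodes the hormone resistin, fell by 1.75 (SE 0.40; limma adjusted p = 0.00646), with 1.27, 0.56 and 1.54 in LPS against 3.63, 3.10 and 1.90 in saline. The member of that list that rose was Nnat (1.51, SE 0.18; limma adjusted p = 0.000327), named after its values were seen. The list's count of lower calls was 8 with saline 2 and 3 against LPS 1 and 2, and 6 without a filter on low values.

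**Figure D3:**
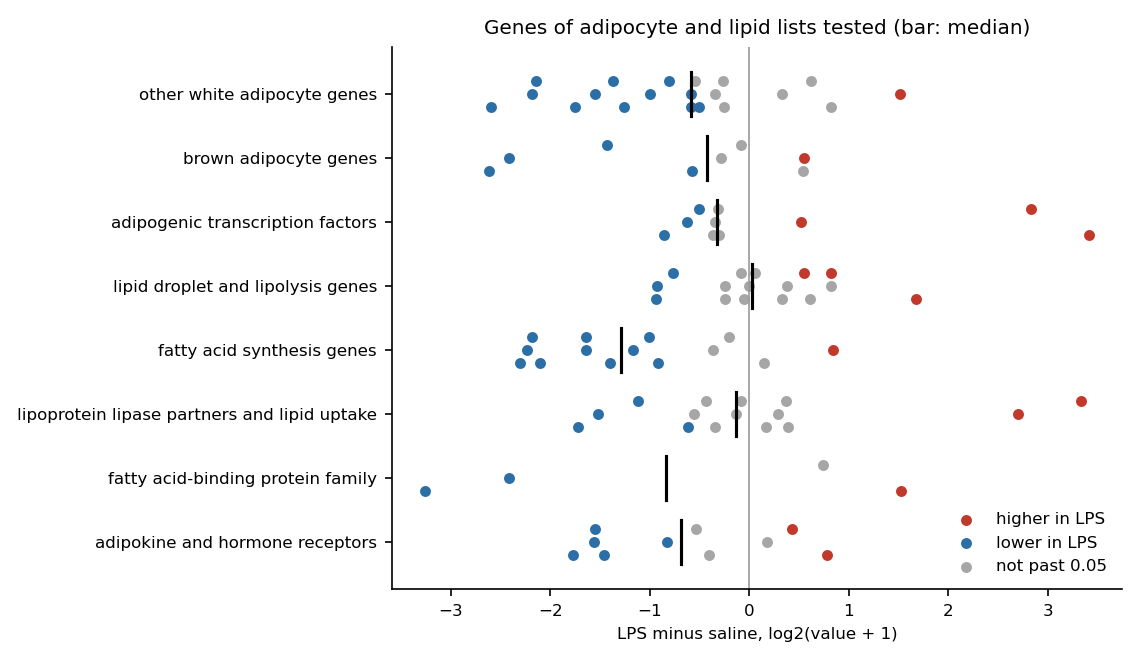
Difference of each tested gene of 8 adipocyte and lipid lists, LPS minus saline on the log2(value + 1) scale; blue points passed the adjusted p threshold of 0.05 and were lower in LPS, red points passed and were higher, grey points did not pass, and black bars are list medians. The fatty acid synthesis list has its median at -1.28, and the lipid droplet list lies around 0.03.

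The defining gene of brown fat was measurable in 1 library only. Ucp1, which encodes the uncoupling protein, is listed at 0 in LPS 1 and LPS 2, with no value in LPS 3, and had 2.31 in saline 1 and 0.00 in saline 2 and 3. It did not pass the filter. The list held 16 genes, of which 8 were tested. Among these 4 fell, 1 rose (Plin5) and 3 did not pass, with a median of -0.43. The number called lower was 2 without LPS 1, without LPS 2 and without saline 1, and 0 were called higher without LPS 3, without saline 3 and with equal sums. Cox8b, a muscle and brown fat subunit of cytochrome oxidase, had 1.91, 3.08 and 3.63 in LPS against 6.65, 5.44 and 4.39 in saline and fell by 2.62 (SE 0.55; limma adjusted p = 0.00425). Fabp3, the heart fatty acid-binding protein, fell by 2.41 (SE 0.52; limma adjusted p = 0.00468), with 2.95, 3.96 and 4.12 in LPS against 7.13, 6.32 and 4.81 in saline. The calls of Cox7a1 (-1.43) and Prdm16 (-0.58) both ended with saline 2 and 3 against LPS 1 and 2, when adjusted p = 0.0633 for Cox7a1 and 0.192 for Prdm16. Cidea, a relative of Cidec that is typical of brown fat, differed by -0.08 (SE 0.35; limma adjusted p = 0.867).

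Heart muscle markers moved with the adipocyte genes. All 12 cardiac markers tested were called lower, 100% of the list against 24.3% of all genes tested, with a median of -2.86. The count depended on the fit, at 4 with the robust fit and 6 without a filter on low values, and was 12 with saline 2 and 3 against LPS 1 and 2. Pln, Myl3 and Ryr2 passed the filter through saline alone. Their summed value before the log, over 10 genes with 6 values, was 55.6, 120 and 179 in LPS 1, 2 and 3 against 2230, 782 and 261 in saline 1, 2 and 3. As with most adipocyte members, saline 1 held the highest sum of its group, saline 3 the lowest, and LPS 3 was the highest LPS library. Nppa, the atrial natriuretic peptide, had 0.31, 0.99 and 2.84 in LPS against 9.04, 6.12 and 4.72 in saline (difference -5.25, SE 0.97; limma adjusted p = 0.00232). No cardiac marker on the list was at 0 in all LPS libraries. The source of the cardiac transcripts within the lung piece was not tested, nor was its part in the adipocyte differences.

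**Figure D4:**
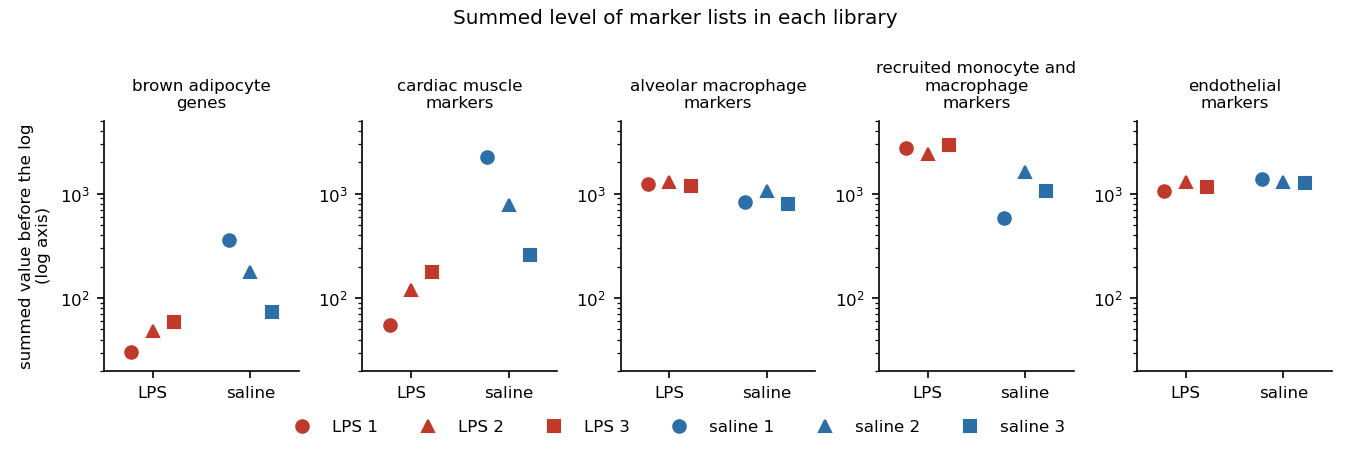
Summed value before the log, on a log axis, of the listed genes with a value in all 6 libraries, for 5 marker lists; red symbols are LPS libraries and blue symbols saline libraries. Brown adipocyte and cardiac sums are highest in saline 1 (356 and 2230), whereas endothelial sums span 1060 to 1380 over all 6 libraries. The brown adipocyte sum leaves out Ucp1. Its highest log2 values in saline 1 are those of Fabp3 (7.13), Cox8b (6.65) and Cox7a1 (6.58). Heart expresses Fabp3 and muscle expresses Cox8b, so this sum is not particular to brown fat.

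Skeletal muscle, above all its slow fibres, also expresses Car3. The fast-fibre myosin genes Myh1, Myh2 and Myh4 had at most 0.11 in any library. No slow-fibre myosin was on the list, so these values do not speak to slow muscle. Of 12 skeletal muscle genes 3 were tested and 2 fell, Ckm (-2.34, SE 0.56; limma adjusted p = 0.00735), a creatine kinase gene that heart also expresses, and the fast troponin gene Tnnt3 (-1.50, SE 0.35; limma adjusted p = 0.0084), fitted on 5 libraries. The call of Ckm ended with the robust fit (adjusted p = 0.0551), and 1 of the list was called lower without LPS 2. Mesothelial genes, from the lining of the lung surface, had 5 lower and 1 higher call among 7 tested, with Upk3b at -1.90 (SE 0.36; limma adjusted p = 0.00318), fitted on 5 libraries. With quantile normalization 3 were called lower and 0 higher. Over the 5 mesothelial genes with 6 values, the sum was 54.6, 36.3 and 52.8 in LPS against 72.3, 70.4 and 89.4 in saline. Saline 3, with the least of most adipocyte genes, had the most of this sum. It leaves out Upk3b and Slc39a8, which have no value in LPS 3. Slc39a8, the gene called higher, had 8.09 and 7.87 in LPS 1 and 2 against 6.30, 6.67 and 6.71 in saline. A sum over the whole list could therefore differ in direction. Of 11 genes tested of adipocyte progenitors and lipofibroblasts 5 fell and 3 rose, with the protease gene Dpp4 (-2.07) and Inmt (-2.25) lower and the stem cell antigen gene Ly6a (1.72) higher. With equal sums 8 of that list were called lower and 1 higher. The parts of these cells in the adipocyte differences were not tested.

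Of the transcription factors that build and maintain fat cells, 3 fell, 3 rose and 4 did not pass among 10 tested. Pparg, the master regulator, had 2.32, 2.60 and 2.50 in LPS against 3.26, 3.01 and 2.67 in saline (difference -0.51, SE 0.18; limma adjusted p = 0.0373). Cebpa differed by -0.35 (SE 0.18; limma adjusted p = 0.122). Cebpb and Cebpd, early adipogenic factors that inflammation also induces, rose by 2.83 (SE 0.29; limma adjusted p = 0.000155) and 3.41 (SE 0.24; limma adjusted p = 5.85e-05). Ebf1 (-0.86) and Rxra (-0.63) fell. The number of factors called lower was 0 with saline 2 and 3 against LPS 1 and 2, 5 without saline 2 and 7 with equal sums.

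Fatty acid synthesis genes were lower as a list, and they are expressed by alveolar type 2 cells as well as by fat cells. Of 14 tested, 10 fell, 1 rose and 3 did not pass, with a median of -1.28. Thrsp and Acacb, both among the 10, passed the filter through saline alone. As many as 10 were called lower with saline 2 and 3 against LPS 1 and 2. Fasn, the fatty acid synthase gene, differed by -2.30 (SE 0.27; limma adjusted p = 0.000276), the glycerol acyltransferase gene Gpam -2.23 (SE 0.20; limma adjusted p = 9.74e-05) and the desaturase gene Fads2 -2.10 (SE 0.23; limma adjusted p = 0.000208). The elongase gene Elovl6 rose (0.84, SE 0.14; limma adjusted p = 0.00137), though no gene of the list was called higher with equal sums. Of 12 alveolar type 2 cell markers tested, 6 fell and 1 rose (11 and 0 with equal sums). Over the 11 of these markers with 6 values, the sums were 14800, 16200 and 15000 in LPS against 20400, 21100 and 19600 in saline. Their part in the lower synthesis genes was not tested.

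Of 16 lipid droplet genes tested outside the set, 3 rose, 3 fell and 10 did not pass. That balance depended on the scaling, since 1 was called higher and 9 lower with equal sums. The number called lower was 1 without saline 1, without saline 3 and with saline 2 and 3 against LPS 1 and 2. Plin2, the perilipin of droplets in all cells and of lipid-laden macrophages, rose by 1.67 (SE 0.21; limma adjusted p = 0.000383), with 8.20, 7.95 and 7.78 in LPS against 5.97, 6.64 and 6.29 in saline. Thus Plin2 was higher and the adipocyte perilipin Plin1 lower in the same libraries. Dgat1, which completes triglyceride synthesis, rose by 0.82 (SE 0.16; limma adjusted p = 0.00302) but did not pass with equal sums (0.08, adjusted p = 0.707). The phosphatidate phosphatase gene Lpin1 fell by 0.94 (SE 0.22; limma adjusted p = 0.00727). Pnpla2, the first lipase of the lipolytic chain, differed by -0.24 (SE 0.20; limma adjusted p = 0.341).

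Genes that act on lipoprotein lipase itself or on lipid uptake differed in direction. Angptl4, a secreted inhibitor of the enzyme, rose by 2.70 (SE 0.25; limma adjusted p = 0.000104), with 6.64, 6.42 and 6.88 in LPS against 3.38, 4.09 and 4.36 in saline. Apoc2, the apolipoprotein that activates the enzyme, rose by 3.33 (SE 0.31; limma adjusted p = 0.000104), with 6.52, 6.03 and 5.43 in LPS against 2.61, 3.18 and 2.19 in saline. Gpihbp1, which anchors the enzyme on capillary endothelium, differed by -0.35 (SE 0.21; limma adjusted p = 0.202). The fatty acid transporter gene Cd36 fell by 1.52 (SE 0.25; limma adjusted p = 0.00134) and the lipoprotein receptor gene Vldlr, fitted on 5 libraries, by 1.72 (SE 0.27; limma adjusted p = 0.00139). With equal sums 10 of the list were called lower. In all, 2 of 15 tested rose, 4 fell and 9 did not pass.

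Macrophage markers are given beside Lpl and Fabp4 because macrophages express both. Of 15 alveolar macrophage markers tested, 3 rose and 6 fell, and with equal sums 0 were called higher and 12 lower. The number called higher was 1 without LPS 1, without LPS 2, without saline 1 and without saline 3. Siglecf and Fabp1, among the 6 lower, passed the filter through saline alone. The list's sum before the log was 1230, 1290 and 1180 in LPS against 825, 1060 and 798 in saline, but Cd9 and Chil3 held most of it. Without these 2 genes, singled out after their values were seen, the sum was 193, 221 and 197 in LPS against 276, 369 and 280 in saline, so the other 13 markers together were lower in every LPS library. Of 12 markers of recruited monocytes and macrophages tested, 8 rose and 0 fell (7 and 2 with equal sums). Over the 11 with 6 values, which leave out Spp1, the sums were 2730, 2410 and 2900 in LPS against 587, 1620 and 1050 in saline. Chil1 weighs most in these sums, with 10.16, 10.77 and 10.81 in LPS against 8.70, 10.32 and 9.71 in saline. Its groups overlapped and it was not called (limma adjusted p = 0.0567). Arg1, the arginase gene, rose by 3.90 (SE 0.35; limma adjusted p = 9.74e-05). Of 14 endothelial markers tested 5 fell and 0 rose. Aplnr, among the 5 lower, passed the filter through saline alone. Lower calls were 35.7% of the list, against 24.3% of all genes tested. Over the 12 with 6 values, the sums were 1060, 1290 and 1170 in LPS against 1380, 1300 and 1270 in saline. With equal sums 13 endothelial markers were called lower, and with quantile normalization 9. No marker of these 3 lists was at 0 in all LPS libraries, and the part of these cells in the levels of Lpl and Fabp4 was not tested.

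In the fatty acid-binding protein family, 4 genes outside the set were tested. Fabp5, the epidermal and macrophage member, rose by 1.52 (SE 0.24; limma adjusted p = 0.00103), with 8.36, 8.32 and 8.88 in LPS against 6.94, 7.38 and 6.67 in saline. Fabp1, the liver member that alveolar macrophages also express in mouse, had 0.00, 0.71 and 0.86 in LPS against 4.19, 3.32 and 3.86 in saline, a difference of -3.26 (SE 0.27). It passed the filter through saline alone. Fabp7 differed by 0.74 (SE 0.36; limma adjusted p = 0.116).

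Receptors for the adipocyte hormones and for the hormones that act on fat cells were measured as well. Of 10 tested, 2 rose, 5 fell and 3 did not pass, with a median of -0.68. With equal sums 9 were called lower. Adipor1 (0.43, SE 0.15; limma adjusted p = 0.0350) rose, a call that did not hold with equal sums or quantile normalization, when 0 of the list were called higher. Adipor2 differed by 0.18 (SE 0.16; limma adjusted p = 0.372). Cdh13, a cadherin that binds adiponectin on vessels, fell by 1.56 (SE 0.22; limma adjusted p = 0.000669) and the leptin receptor gene Lepr by 0.83 (SE 0.19; limma adjusted p = 0.00577). Adrb3, the adrenergic receptor typical of fat cells, had 0.21, 0.14 and 0.27 in LPS against 2.35, 1.51 and 1.42 in saline, a difference of -1.55 (SE 0.24). Adrb3 and Irs1, both counted among the 5 lower, passed the filter through saline alone.

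Around Cfd, other genes of the alternative complement pathway differed in direction from it. Of 6 tested, 3 rose, 1 fell and 2 did not pass. Cfb, the substrate of factor D, rose by 2.53 (SE 0.48; limma adjusted p = 0.0025), with 8.42, 7.81 and 8.91 in LPS against 4.65, 6.69 and 6.21 in saline. Cfp, which encodes the stabilising protein properdin, rose by 1.90 (SE 0.25; limma adjusted p = 0.000459). The central component gene C3 differed by 0.41 (SE 0.22; limma adjusted p = 0.146). Among the relatives of Car3, 1 of 6 carbonic anhydrase genes tested rose, Car13 (1.74, SE 0.29; limma adjusted p = 0.00142), and 1 fell, Car14 (-1.72, SE 0.20; limma adjusted p = 0.000282). With equal sums 5 were called lower, and with quantile normalization 4. Car4, the enzyme of lung capillary endothelium, differed by -0.13 (SE 0.17; limma adjusted p = 0.559).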

How the data were processed

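RNA sequencing of mouse lung was analysed from 6 tables, 1 per library, of 23183 gene symbols. Per the labels' protocols, the libraries come from Trizol-extracted total RNA and a directional kit. TopHat and the mm10 build are named per the submitters' processing notes. Which counter, annotation and scaling were used was not given in the sources used here. Deposited values are on a log2 scale, read from the values themselves as log2 of an expression value plus 1. Exact zeros number 5117 to 6223 per LPS library and 3869 per saline library, while tiny values (above 0 and under 0.01) number 11 to 24 in LPS and 1505 to 1936 in saline. That difference follows the groups, so for values near 0 it cannot be told apart from treatment. No library pair shared an identical log2 value of 1 or above. Positions are from GENCODE M21 (GRCm38) and sequences from RefSeq (GRCm38.p6).

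The fit was limma 3.58.1 in R 4.3.3 with a variance trend, over 13116 genes with a value of at least 1 before the log in at least 3 libraries, with Benjamini-Hochberg adjustment and a threshold of 0.05. A gene with no value in LPS 3 was fitted on 5 libraries. The fit was tested on simulated data. An SE beside a member is from the SDs of both groups, and beside another gene from limma. P-values measure only the spread between these libraries, which may be technical. The members and gene lists were chosen with earlier results of these data known. Genes named were the members, the genes most like Adipoq, Lcn2, and up to 4 called genes with the largest difference per list, and others named were chosen after their values were seen, or because of their role. Some genes that the rule named are not reported here. Alternatives covered filters, pseudocount, scaling, variance model, threshold, leaving out libraries and a replicate block.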

Additional observations from a re-analysis of the deposited data

How the results depend on the processing

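Over all genes tested, 3377 were called higher and 3188 lower in LPS. Equal sums put the median of all genes tested at -0.68, against 0.02 as deposited, and gave 798 higher and 8343 lower, so each direction is relative to the scaling as deposited. Quantile normalization gave 2204 higher, a mean value of at least 5 gave 1752 lower, an adjusted p of 0.01 gave 2033 higher and 2004 lower, and saline 2 and 3 against LPS 1 and 2 gave 2092 higher. Leaving out 1 library at a time gave 2461 to 3660 higher and 2440 to 3436 lower. Of the other white adipocyte genes, 12 were called lower in the reported fit, 7 with a mean value of at least 5, 6 without a filter and 6 at an adjusted p of 0.01, and 8 to 13 when 1 library was left out. The 1 called higher became 2 with the replicate block and 2 with saline 2 and 3 against LPS 1 and 2, and 1 to 3 when 1 library was left out (3 without saline 1, 2 without saline 2).

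The median difference of the members, -1.75, was -2.86 with a pseudocount of 0.1 and -2.41 for members with a mean value of at least 5, and -1.93 to -1.45 when 1 library was left out. With the pseudocount of 0.1 the difference was -5.52 for Adipoq, -6.87 for Car3, -6.90 for Cfd, -5.35 for Plin1, -2.47 for Lep and -1.67 for Plin4, because a smaller pseudocount widens differences of genes near 0. Of the 100 other values computed for single members, 85 moved by less than 1 SD, 14 by more, and 1 reversed, Fabp4 at 0.01 without saline 1 (-0.86 without saline 3). With equal sums the difference of Lipe was -1.47. Among other genes the reversals were Mal, -0.16 with equal sums, and Hbb-b1, -0.09 with quantile normalization.

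The library numbers did not pair the samples: deviations from the group means correlated at -0.234, -0.0776 and -0.252 for libraries 1, 2 and 3. With the replicate block 2793 genes were called higher and 2624 lower, 9 of the other white adipocyte genes were called lower, and the median of the members stayed at -1.75.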

Other observations

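Nerve sheath and erythroid genes were also measured. Of 7 nerve sheath genes tested 2 fell and 1 rose, and with equal sums 5 were called lower and 0 higher. Pllp, a myelin membrane protein gene, fell by 2.35 (SE 0.27; limma adjusted p = 0.000248), and Mal rose by 0.60 (SE 0.18; limma adjusted p = 0.0218), a direction that flipped with equal sums (-0.16).

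Of 7 erythroid genes tested 4 rose and 0 fell, and 2 were called higher without saline 3. These were Hba-a1 (1.26), Hba-a2 (3.20), Hbb-b1 (1.20) and Hbb-b2 (1.22), near-identical globin copies between which reads can be split, so their single values are uncertain. Hba-a1, Hbb-b1 and Hbb-b2 did not pass with quantile normalization, where Hbb-b1 was at -0.09. Alas2, which starts haem synthesis in red cell precursors, differed by 0.12 (SE 0.22; limma adjusted p = 0.661). With equal sums 1 erythroid gene was called higher and 1 lower.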
